A study of Homo sapiens with 15 samples.

Results

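The genes described here are those of the mitochondrial genome, taken as every gene ID that the deposited count files place on the MT chromosome: 37 of 60664 gene IDs. They are 2 rRNA genes, 22 tRNA genes and 13 protein genes. RNA was measured in T47D, an established oestrogen receptor-positive luminal breast cancer cell line, in 15 libraries in 5 groups of 3. Resistant cells (TR01, labelled resistant to 4-hydroxytamoxifen, 4-OHT, the active form of tamoxifen) were treated with 5 µM erdafitinib plus 1 µM 4-OHT (TR combination), 5 µM erdafitinib, an inhibitor of FGF receptor kinases (TR erdafitinib), 1 µM 4-OHT (TR 4-OHT), or vehicle (TR vehicle). Parental cells (PAR01, labelled sensitive) were given vehicle only (PAR vehicle). Treatment lasted 120 h, with 0.05% DMSO as vehicle, and began after 24 h of attachment and 48 h in insulin-containing medium with 2% charcoal-stripped serum. Before that, TR cells were grown in 2% charcoal-stripped serum with 1 µM 4-OHT and PAR cells in 5% serum, so resistance, line and culture history cannot be told apart. The labels do not say whether TR01 is a clone or how the 3 libraries of a group were made separate, so p-values cover no more than the spread seen between the libraries, some of which may be technical.

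The human mitochondrial genome is a small circle that is transcribed from both strands into long RNAs, out of which the tRNAs are cut, which frees the rRNAs and mRNAs between them. The heavy-strand promoter drives the rRNAs, most tRNAs and the mRNAs of respiratory complexes I, III, IV and V. The light-strand promoter drives a transcript that carries MT-ND6, a complex I subunit, and a few tRNAs spread around the circle, along with long stretches antisense to the heavy-strand genes that are normally broken down fast; RNA started there also primes replication of the DNA. By the strand given in the count files, 28 members lie on the heavy-strand transcript and 9 (MT-ND6 and 8 tRNA genes) on the light-strand transcript.

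The sequences below show the genes of the light-strand transcript, on which most of the calls between TR and PAR cells lay, beside the mRNAs of the heavy strand that were called. They were taken from the GENCODE transcripts of GRCh38, whose coordinates for these genes equal those in the count files, and are written as DNA in the direction of the gene. First come the 8 tRNA genes of the light-strand transcript, all on the minus strand, with the anticodon in capitals. They carry proline (MT-TP, MT:15956-16023), glutamate (MT-TE, MT:14674-14742), glutamine (MT-TQ, MT:4329-4400), serine (MT-TS1, MT:7446-7514), tyrosine (MT-TY, MT:5826-5891), asparagine (MT-TN, MT:5657-5729), alanine (MT-TA, MT:5587-5655) and cysteine (MT-TC, MT:5761-5826).
MT-TP: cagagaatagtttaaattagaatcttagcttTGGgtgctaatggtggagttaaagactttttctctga
MT-TE: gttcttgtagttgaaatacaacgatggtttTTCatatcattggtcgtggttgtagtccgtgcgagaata
MT-TQ: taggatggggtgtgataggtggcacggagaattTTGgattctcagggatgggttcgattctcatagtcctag
MT-TS1: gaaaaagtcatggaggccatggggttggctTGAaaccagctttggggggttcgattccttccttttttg
MT-TY: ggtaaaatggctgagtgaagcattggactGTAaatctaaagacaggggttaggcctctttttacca
MT-TN: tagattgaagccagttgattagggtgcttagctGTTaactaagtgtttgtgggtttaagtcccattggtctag
MT-TA: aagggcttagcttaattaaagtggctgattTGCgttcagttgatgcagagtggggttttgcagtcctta
MT-TC: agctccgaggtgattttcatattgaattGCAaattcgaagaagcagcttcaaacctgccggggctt

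A second set shows the strands side by side. It holds the first 150 bases of MT-ND6 (MT:14149-14673, minus strand), the protein gene of the light-strand transcript, and of the heavy-strand genes MT-ND3 (MT:10059-10404, plus strand) and MT-ATP8 (MT:8366-8572, plus strand), which were also called in TR cells. The first codon is in capitals; ATA is a start codon in mitochondria.
MT-ND6: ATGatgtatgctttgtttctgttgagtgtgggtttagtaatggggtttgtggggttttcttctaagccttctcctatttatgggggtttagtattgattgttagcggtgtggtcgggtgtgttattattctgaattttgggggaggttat
MT-ND3: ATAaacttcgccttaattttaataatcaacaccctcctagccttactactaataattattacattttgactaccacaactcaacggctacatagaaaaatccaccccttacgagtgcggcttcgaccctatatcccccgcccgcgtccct
MT-ATP8: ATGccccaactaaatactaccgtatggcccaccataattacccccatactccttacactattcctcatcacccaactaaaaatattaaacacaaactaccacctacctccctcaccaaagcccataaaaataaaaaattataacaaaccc
The RNA of MT-ND6 was 35.6% G and 7.05% C. In the 12 heavy-strand protein genes, G ranged from 6.28% to 16.2% and C from 29.5% to 36.0%. The tRNA genes of the heavy-strand transcript that were called in a comparison carry leucine (MT-TL1, MT:3230-3304, plus strand) and threonine (MT-TT, MT:15888-15953, plus strand).

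Library totals ranged from 6946684 (PAR vehicle 2) to 28717380 counted fragments, followed by TR 4-OHT 2 at 8990899. All 7 luminal markers (KRT8, KRT18, KRT19, EPCAM, GATA3, FOXA1 and ESR1) were detected, with summed levels of 1772 to 3640 CPM (counts per 1000000 fragments) over all libraries. The 4 leukocyte markers summed to at most 0.236 CPM, with CD3E at 0 in every library, and the 3 endothelial markers to at most 0.0515 CPM. The 5 fibroblast markers summed to 11.9 to 37.6 CPM, in overlapping ranges in TR and PAR libraries and nearly all of it COL1A1. COL3A1, DCN, LUM and PDGFRB were at 0 in every PAR library, and in TR libraries COL3A1 reached 2.99 CPM and LUM 0.818 CPM; their part in the results was not tested. PAR vehicle 3 stood apart from the other PAR libraries on the first within-group axis of the nuclear genes, with a score of 0.47 against -0.04 and -0.42, and TR vehicle 1 stood apart from the other TR vehicle libraries, at -0.42 against 0.21 and 0.21. Chi-square per gene was 157 and 155 between TR vehicle 1 and the other TR vehicle libraries, against 15.5 between those. Results of mitochondrial genes that hang on either library are given without it. For the nuclear lists, fits without single libraries were read only as counts of calls. Whether the change of a single nuclear gene hangs on either library was therefore not determined.

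The mitochondrial genome supplied a large and variable share of the counted fragments, and this share did not separate the groups. It was 22.9, 22.3 and 17.9% in TR combination libraries, 15.8, 17.9 and 19.3% in TR erdafitinib libraries, and 17.8, 24.2 and 19.8% in TR 4-OHT libraries. In TR vehicle libraries it was 22.6, 18.6 and 15.6%, against 25.7, 24.0 and 14.5% in PAR vehicle libraries. The PAR group alone spanned the range of all the others, with PAR vehicle 3 the lowest of the 15 libraries and PAR vehicle 1 the highest. The 13 protein genes took 12.1 to 18.9% of fragments in TR libraries and 11.1 to 21.0% in PAR libraries, and the 2 rRNA genes 3.15 to 5.29% in TR libraries and 3.45 to 6.09% in PAR libraries. The 22 tRNA genes took 51.8 to 163 CPM of the unscaled total in TR libraries and 15.9 to 29.05 CPM in PAR libraries, without overlap. These tRNA values are not levels of mature tRNA: the RNeasy columns used to isolate the RNA hold back few RNAs that short, and the count files leave out any fragment that lies across adjacent genes of a strand.

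**Figure D1:**
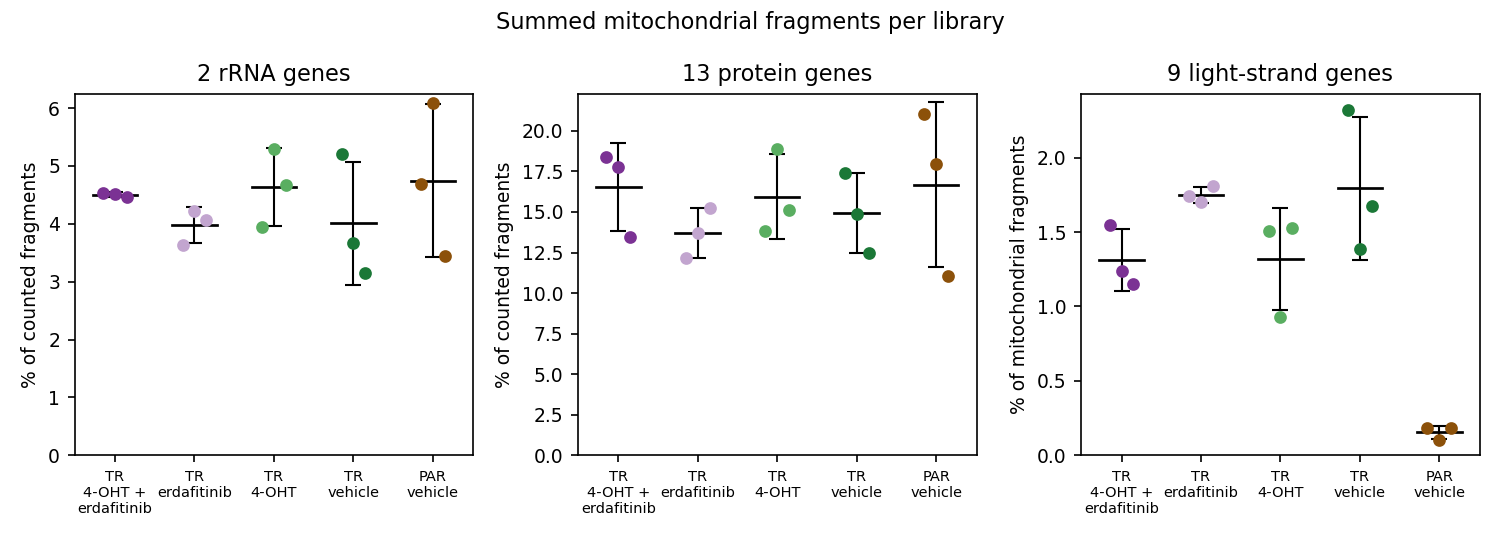
Summed fragments per library in TR cells on 4-OHT plus erdafitinib, erdafitinib, 4-OHT or vehicle and in PAR cells on vehicle, as a percentage of all counted fragments (2 rRNA genes, 13 protein genes) or of mitochondrial fragments (9 light-strand genes). Points are libraries, and bars the mean and SD of 3. The protein shares overlap between all groups, and the rRNA shares between all except TR combination (4.46 to 4.53%) and TR erdafitinib (3.64 to 4.23%). The light-strand share lies between 0.93 and 2.32% in TR libraries and between 0.106 and 0.182% in PAR libraries. In TR erdafitinib libraries it is 1.70 to 1.81%, above TR combination (1.15 to 1.55%) and TR 4-OHT (0.93 to 1.52%) without overlap.

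The question asked first was how resistant cells differ from parental cells, both on vehicle. A gene was called at an adjusted p under 0.05 in edgeR's quasi-likelihood test with Benjamini-Hochberg adjustment over the 16210 genes tested, and 26 of the 37 members had enough counts to be tested. Of these, 11 were called in TR vehicle against PAR vehicle, 9 higher and 2 lower. That is 42.3% of the members tested, where 35.9% of all genes tested were called (19.9% higher and 16% lower), so the count itself does not set the members apart. The direction split by strand. On the light-strand transcript, 7 of the 8 genes tested rose and 0 fell, with a median log2 fold change of 3.44. On the heavy-strand transcript, 2 of the 18 tested rose and 2 fell, with a median of -0.26. The median over all genes was 0.07. MT-TP, MT-TE, MT-TS1, MT-TY and MT-TN held 0 fragments in PAR vehicle 2. They had enough counts to be tested only with the help of TR libraries, where they are high. Genes of a strand also share a transcript, so their calls are not independent. The count and the median therefore describe the light-strand genes and are not a test of the strand. The heavy-strand count depends on single libraries: it was 2 without PAR vehicle 2 or TR vehicle 2. The members lower in TR numbered 6 without PAR vehicle 3, and 1 without any of PAR vehicle 1, PAR vehicle 2, TR vehicle 2 and TR vehicle 3.

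**Figure D2:**
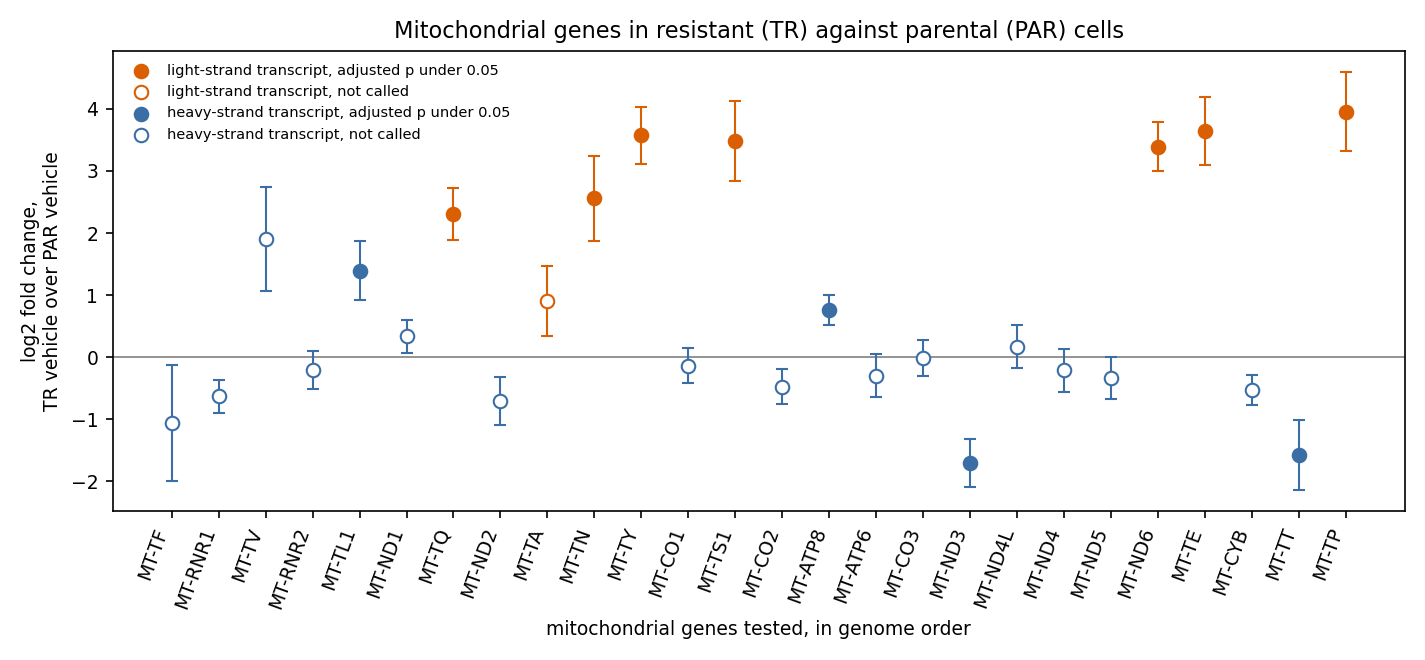
Log2 fold change (TR vehicle over PAR vehicle) with its standard error for the 26 mitochondrial genes tested, in genome order, coloured by the strand of the transcript and filled where the adjusted p was under 0.05. The 7 filled light-strand genes lie between 2.31 and 3.96, above every heavy-strand gene, whose values lie between -1.70 and 1.90.

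MT-ND6, the only mRNA of the light-strand transcript, had 5520, 2385 and 2358 CPM (scaled by TMM, as all CPM values of single genes below) in TR vehicle libraries, against 489, 265 and 225 CPM in PAR vehicle libraries. The treated TR groups held 3672, 2684 and 1867 CPM on the combination, 2481, 2907 and 3423 CPM on erdafitinib and 2512, 2300 and 2901 CPM on 4-OHT. Every TR library lay above every PAR library, the nearest pair being 1867 and 489 CPM. The share of all genes that part the lines without overlap was not determined, so lack of overlap does not by itself set a member apart. The log2 fold change between the vehicle groups was 3.39 (SE 0.39, adjusted p = 1.29e-05), or 10.5-fold. TR vehicle 1 was the highest of all libraries, and without it the log2 fold change was the lowest of the 16 alternatives, 2.87; all 16 kept the call.

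Per kilobase of gene, MT-ND6 moved within the order of the protein genes. Such values divide by the full gene length, although fragments that touch several genes are left out, so the order between genes is loosely set. MT-ND6 had 10514, 4542 and 4491 CPM per kb in TR vehicle libraries, where MT-ND1 had 6762, 7057 and 5210. MT-ND6 was above MT-ND1 in TR vehicle 1 and below it in TR vehicle 2 and 3. In PAR vehicle libraries the mean of MT-ND6 was the lowest of the 13, at 622 CPM per kb, with MT-ND1 next at 5020. Set against MT-ND5, its neighbour on the opposite strand, the per-length ratio was 1.44, 0.98 and 1.13 in TR vehicle libraries, against 0.104, 0.066 and 0.121 in PAR vehicle libraries. As a share of the fragments of the 13 protein genes, MT-ND6 made up 2.21 ± 0.65% in TR vehicle libraries and 0.190 ± 0.049% in PAR vehicle libraries (SD, n = 3 each).

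The light-strand tRNA genes differed in the same direction. MT-TP, which sits alone on its strand next to the control region, had 38.8, 15.8 and 16.8 CPM in TR vehicle libraries, against 3.35, 0 and 0.98 CPM in PAR vehicle libraries. Its log2 fold change was 3.96 (SE 0.64, adjusted p = 2.66e-04). It was 5.12 without PAR vehicle 1, which held 40 fragments where PAR vehicle 2 held 0 and PAR vehicle 3 held 27, and 3.42 without TR vehicle 1. The 0 was in the shallow PAR vehicle 2, where 3 fragments would be 0.432 CPM. MT-TQ, the most abundant tRNA gene by counts, had 96.4, 47.3 and 37.3 CPM in TR vehicle libraries, against 17.4, 10.95 and 8.29 CPM in PAR vehicle libraries (log2 fold change 2.31, SE 0.43, adjusted p = 7.50e-04). MT-TS1 had 15.5, 7.85 and 6.56 CPM in TR vehicle libraries, against 1.68, 0 and 0.76 CPM in PAR vehicle libraries (log2 fold change 3.49, SE 0.65, adjusted p = 7.61e-04), and its log2 fold change was 4.24 without PAR vehicle 1. For all of them TR and PAR libraries did not overlap, whatever the treatment of the TR cells, and TR vehicle 1 was the highest of the 15 libraries.

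MT-TE, which follows MT-ND6 in the genome and comes before it in the transcript, had 4.95, 2.17 and 2.46 CPM in TR vehicle libraries, against 0.335, 0 and 0.291 CPM in PAR vehicle libraries (log2 fold change 3.65, SE 0.55, adjusted p = 1.40e-04). MT-TY had 4.85, 6.17 and 4.96 CPM in TR vehicle libraries, against 0.587, 0 and 0.545 CPM in PAR vehicle libraries (log2 fold change 3.57, SE 0.46, adjusted p = 3.45e-05). MT-TN had 2.68, 0.90 and 1.06 CPM in TR vehicle libraries, against 0.587, 0 and 0.145 CPM in PAR vehicle libraries (log2 fold change 2.56, SE 0.69, adjusted p = 0.00948). These genes rest on few fragments, with 4, 0 and 8 of MT-TE and 7, 0 and 4 of MT-TN in the PAR libraries, so their fold changes are loosely set even where the groups do not overlap. The log2 fold change of MT-TN was 3.73 without PAR vehicle 1 and 1.93 without TR vehicle 1. MT-TN was no longer called when only the TR vehicle and PAR vehicle groups were fitted (log2 fold change 2.51, adjusted p = 0.0843), and the other 6 light-strand genes kept the call under all 16 alternatives.

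MT-TA was the light-strand gene tested that was not called, at 6.60, 4.41 and 4.75 CPM in TR vehicle libraries and 2.096, 5.08 and 1.64 CPM in PAR vehicle libraries (log2 fold change 0.91, SE 0.57, adjusted p = 0.241). PAR vehicle 2 lay within the TR range. Without it and TR 4-OHT 2, the shallowest libraries, MT-TA had a log2 fold change of 1.51 and was called (adjusted p = 0.0118). MT-TC had too few fragments to be tested, at 1 to 14 in each TR library and 1, 0 and 0 in the PAR libraries. Over all 9 light-strand genes, the share of mitochondrial fragments was 2.32, 1.38 and 1.67% in TR vehicle libraries, against 0.182, 0.106 and 0.181% in PAR vehicle libraries.

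**Figure D3:**
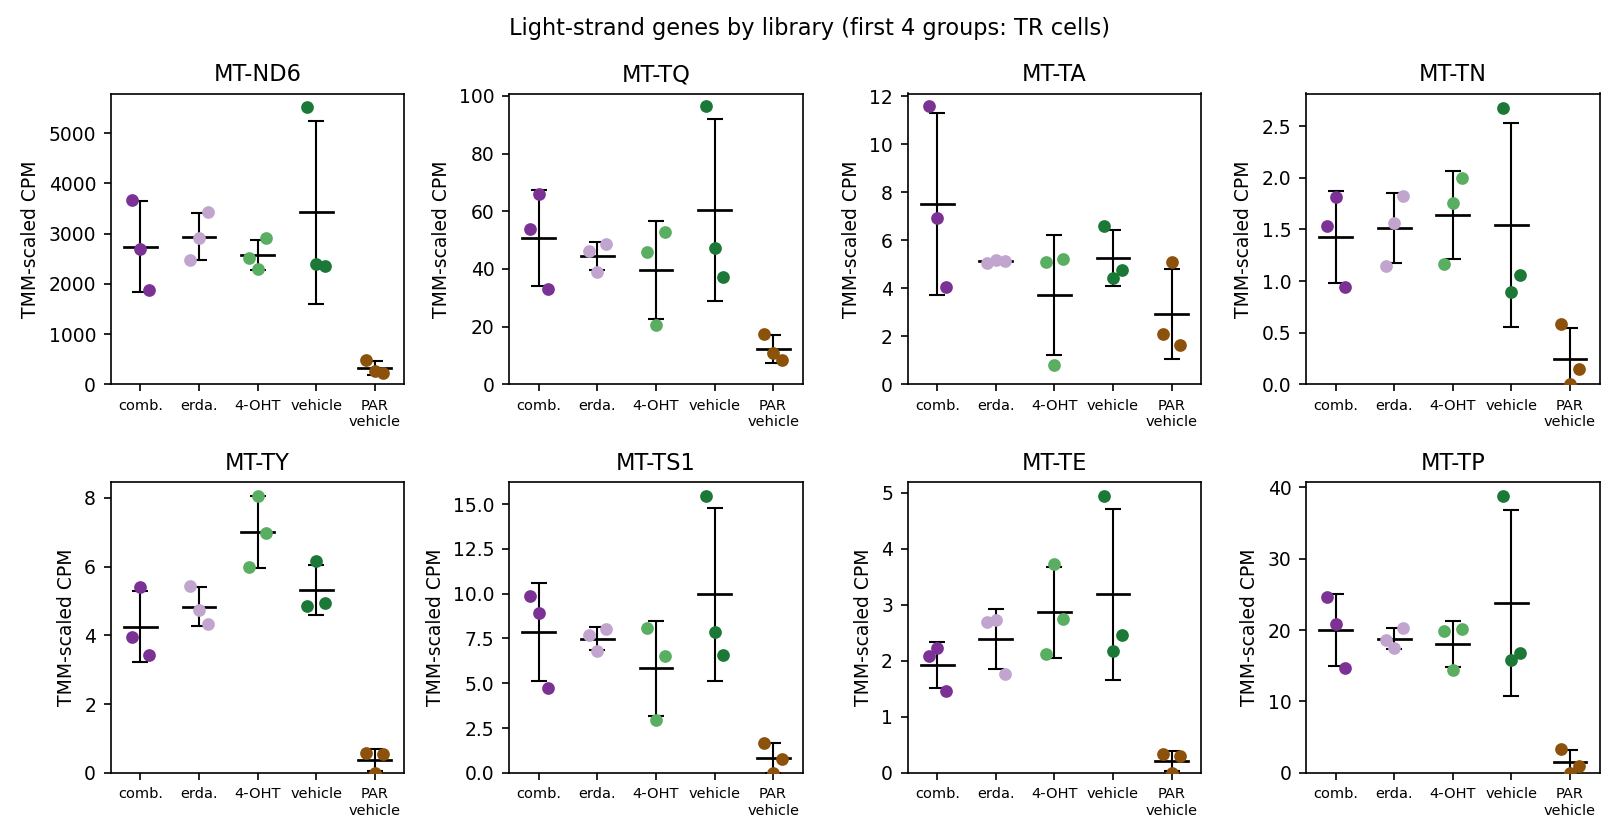
TMM-scaled CPM of the 8 light-strand genes tested, by library, in TR cells on the combination (comb.), erdafitinib (erda.), 4-OHT and vehicle and in PAR cells on vehicle. Points are libraries, and bars the mean and SD of 3. In all panels except that of MT-TA the PAR libraries lie below every TR library. The share of all genes that do so was not determined.

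The tRNA genes of the 2 strands, which are alike in length, were set side by side. Fragments that touch several genes of a strand are left out, and the distance to the nearest such gene differs. It is 1186 bases for MT-TQ, 1554 for MT-TS1 and 1213 for MT-TP, and at most 1 for all other tRNA genes. The strands are therefore not counted alike, and the part of this in the values was not tested. The 8 light-strand tRNA genes summed to 157, 88.3 and 79.7 CPM of the unscaled total in TR vehicle libraries, against 23.7, 14.5 and 13.9 CPM in PAR vehicle libraries. The heavy-strand tRNA genes summed to 5.52, 4.09 and 2.46 CPM in TR vehicle libraries and 5.32, 8.06 and 1.96 CPM in PAR vehicle libraries. The light-strand sums did not overlap between the lines and the heavy-strand sums did. To see how often fragments of an abundant gene were counted on the opposite strand, nuclear genes annotated inside a highly expressed gene of the other strand were counted, in a check added after seeing the data. The 117 inner genes held 0.0229 to 0.0420% of the counts of their 111 outer genes in TR libraries and 0.0272 to 0.0500% in PAR libraries. These ranges overlapped, and the counts can include RNA made from the inner genes themselves. Nuclear genes annotated as antisense took 0.398 to 0.4305% of nuclear counts in TR libraries and 0.505 to 0.581% in PAR libraries, without overlap. Those counts can likewise include RNA made from the antisense genes themselves. The part of opposite-strand fragments in the light-strand difference was not tested.

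The rRNA genes did not pass the test between resistant and parental cells. MT-RNR1 (12S rRNA, of the small mitochondrial ribosomal subunit) had 11682, 8611 and 7187 CPM in TR vehicle libraries, against 12914, 19978 and 9542 CPM in PAR vehicle libraries. The groups overlapped, and the log2 fold change was -0.63 (SE 0.27, adjusted p = 0.0817). It was called without PAR vehicle 3 (-0.82, adjusted p = 0.0206), without TR vehicle 1 (-0.83, adjusted p = 0.0318) and with the within-group axis fitted as a covariate (-0.59, adjusted p = 8.76e-04). MT-RNR2 (16S rRNA, of the large subunit) had 44711, 26671 and 22138 CPM in TR vehicle libraries and 38792, 47227 and 21782 CPM in PAR vehicle libraries, at a log2 fold change of -0.21 with an SE of 0.30 (adjusted p = 0.640). Per length, MT-RNR2 exceeded MT-RNR1 in every library, by a ratio of 2.34, 1.90 and 1.88 in TR vehicle libraries, against 1.84, 1.45 and 1.397 in PAR vehicle libraries. The vehicle groups did not overlap in this ratio, but TR 4-OHT 2, at 1.70, and TR combination 3, at 1.83, lay within the PAR range.

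Of the 12 heavy-strand mRNAs, MT-ND3 and MT-ATP8 were called. MT-ND3, a small core subunit of complex I, fell to 3749, 2709 and 2171 CPM in TR vehicle libraries, against 10810, 13651 and 3619 CPM in PAR vehicle libraries (log2 fold change -1.70, SE 0.39, adjusted p = 0.00331). PAR vehicle 3 lay within the TR range, and without it the log2 fold change was -2.06. The call held under all 16 alternatives, from -2.06 to -1.32. As a share of the 13 protein genes, MT-ND3 made up 1.92 ± 0.06% in TR vehicle libraries and 5.06 ± 1.68% in PAR vehicle libraries (SD, n = 3 each), and the treated TR groups averaged 1.73 to 2.08%.

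MT-ATP8, a small subunit of ATP synthase whose reading frame overlaps that of MT-ATP6, rose to 4781, 3150 and 2655 CPM in TR vehicle libraries, against 2331, 2380 and 1543 CPM in PAR vehicle libraries. The groups did not overlap, and every treated TR library was above every PAR library. The log2 fold change was 0.76 (SE 0.24, adjusted p = 0.0222), but the call was lost without PAR vehicle 3 (0.61, adjusted p = 0.0614), without TR vehicle 1 (0.49, adjusted p = 0.0923) and when only the groups compared were fitted (0.73, adjusted p = 0.123). MT-ATP6, on the same RNA, was not called (log2 fold change -0.30, SE 0.35, adjusted p = 0.541). Fragments that touch both genes are not in the counts, so the MT-ATP8 values come from the part of the RNA that the genes do not share.

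The other 10 heavy-strand mRNAs did not pass the test, with log2 fold changes from -0.71 (MT-ND2, adjusted p = 0.172) to 0.34 (MT-ND1, adjusted p = 0.345). MT-CO1, the catalytic subunit of cytochrome c oxidase, had 25570, 21679 and 17899 CPM in TR vehicle libraries and 30987, 25984 and 14703 CPM in PAR vehicle libraries (log2 fold change -0.14, SE 0.28, adjusted p = 0.745). The 95% interval of that change ran from -0.77 to 0.50, so changes of that size could not be told from none. Without PAR vehicle 3, MT-ND2 (-1.03, adjusted p = 0.0267), MT-CO2 (-0.70, adjusted p = 0.0356) and MT-CYB (-0.73, adjusted p = 0.0146) were called lower in TR. They were also called with the within-group axis as a covariate. Per kilobase of full gene length, with the limit given for MT-ND6, MT-ND4L had the highest mean of the mRNAs in the TR vehicle group, at 37334 CPM per kb. In the PAR vehicle group its mean was 33312 CPM per kb, against 32902 for MT-CO2, and MT-CO2 was above it in PAR vehicle 2 and 3.

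Among the heavy-strand tRNA genes, MT-TL1, whose gene follows MT-RNR2, had 2.53, 1.64 and 0.75 CPM in TR vehicle libraries, against 0.838, 0.635 and 0.436 CPM in PAR vehicle libraries. The log2 fold change was 1.39 (SE 0.47, adjusted p = 0.0332), on 49, 44 and 22 fragments in TR vehicle libraries and 10, 4 and 12 in PAR vehicle libraries. TR vehicle 3 lay within the PAR range. Leaving out PAR vehicle 2 (adjusted p = 0.0578), PAR vehicle 3 (0.119), TR vehicle 1 (0.124) or TR vehicle 2 (0.0652) ended the call, as did fitting only the groups compared (0.157) and no filter on low counts (0.0508). MT-TT, whose gene follows MT-CYB, had 1.96, 0.93 and 0.85 CPM in TR vehicle libraries and 3.94, 6.67 and 0.95 CPM in PAR vehicle libraries. Its log2 fold change was -1.58 (SE 0.56, adjusted p = 0.0400), again with PAR vehicle 3 inside the TR range. That call ended without PAR vehicle 1 (adjusted p = 0.0890), PAR vehicle 2 (0.217), TR vehicle 2 (0.129) or TR vehicle 3 (0.140), with the replicate block (log2 fold change -1.45, adjusted p = 0.0512), without the 2 shallowest libraries (-0.92, adjusted p = 0.225) and when only the groups compared were fitted (adjusted p = 0.156). MT-TF and MT-TV were tested and not called, and MT-TI, MT-TM, MT-TW, MT-TD, MT-TK, MT-TG, MT-TR, MT-TH, MT-TS2 and MT-TL2 had at most 9 fragments in any library and were not tested.

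**Figure D4:**
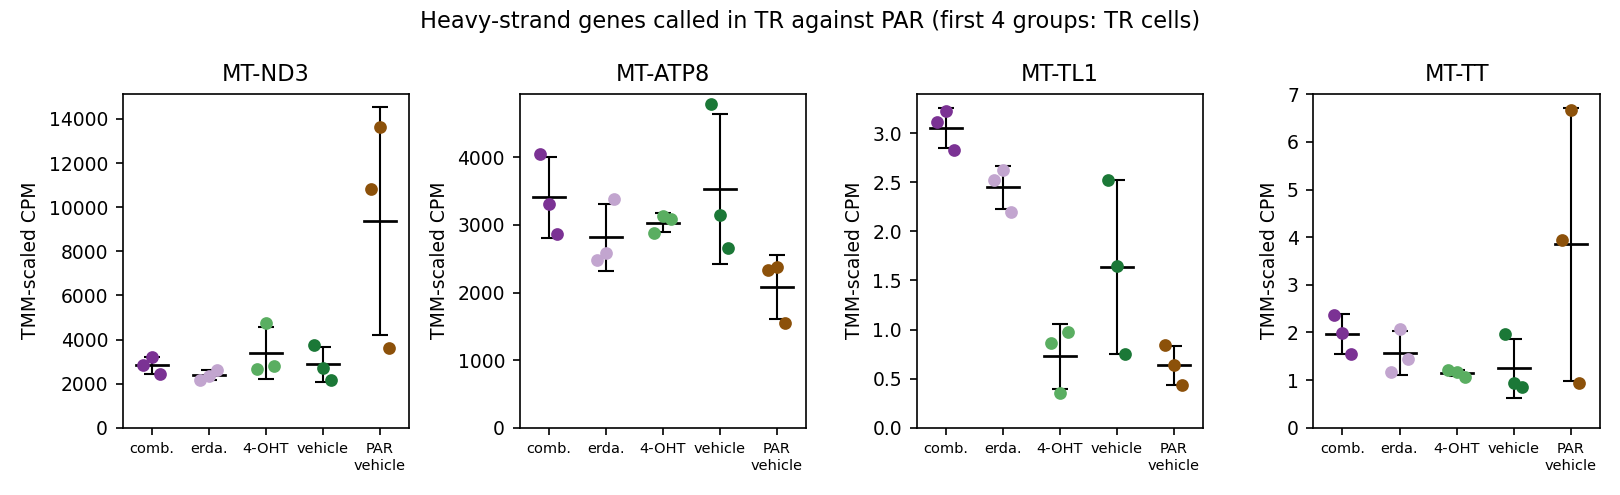
TMM-scaled CPM of the 4 heavy-strand genes called in TR vehicle against PAR vehicle, by library, in TR cells on the combination (comb.), erdafitinib (erda.), 4-OHT and vehicle and in PAR cells on vehicle. Points are libraries, and bars the mean and SD of 3; PAR libraries lie below all TR libraries for MT-ATP8, and the lowest PAR library lies within the TR range for MT-ND3 and MT-TT.

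The drug comparisons asked how these genes differ with 4-OHT and with erdafitinib in resistant cells. All TR cells had been grown in 1 µM 4-OHT before, so TR vehicle cells were withdrawn from it. Whether a change with erdafitinib comes from FGF receptors was not tested. In TR 4-OHT against TR vehicle, 0 of the 26 members were called, where 0% of all genes were (127 of 16210 at an unadjusted p under 0.05, and 0 by DESeq2). MT-ND6 had a log2 fold change of -0.41 (SE 0.36), and MT-TL1 the largest of the members, -1.07 (SE 0.44). In TR erdafitinib against TR vehicle, 0 members were called against 0.0925% of all genes, and MT-ND6 was at -0.22 (SE 0.36). In TR combination against TR 4-OHT, 0 members were called against 0.642% of all genes, and MT-ND6 was at 0.09 (SE 0.36). In TR combination against TR erdafitinib, 0 members were called against 0% of all genes (104 at an unadjusted p under 0.05, and 16 by DESeq2), and MT-ND6 was at -0.10 (SE 0.36). The interaction of the drugs also called 0 members and 0% of all genes (134 at an unadjusted p under 0.05, and 1 by DESeq2). Among the members, MT-TL1 alone was under an unadjusted p of 0.05, in TR 4-OHT against TR vehicle, in TR combination against TR 4-OHT and in the interaction, and 0 members were in the other 2 comparisons. DESeq2 called MT-TL1 in TR combination against TR 4-OHT and 0 members in the others. The 95% intervals of MT-ND6 in the 4 comparisons between groups lay between -1.21 and 0.89 on the log2 scale, so a change of the size seen between TR and PAR was outside them. As a share of mitochondrial fragments, the light-strand genes held 1.70 to 1.81% in TR erdafitinib libraries. That was above TR combination (1.15 to 1.55%) and TR 4-OHT (0.93 to 1.52%) without overlap, while TR vehicle (1.38 to 2.32%) overlapped all of them. This share was not tested.

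Over both backgrounds, erdafitinib called 1 member, MT-TL1, where 1.71% of all genes were called. MT-TL1 had 3.11, 3.22 and 2.82 CPM in TR combination libraries, against 0.859, 0.351 and 0.975 CPM in TR 4-OHT libraries, which do not overlap. In TR erdafitinib libraries it had 2.52, 2.62 and 2.20 CPM, against 2.53, 1.64 and 0.75 CPM in TR vehicle libraries, which do. The pooled log2 fold change was 1.29 (SE 0.30, adjusted p = 0.0484), and in TR combination against TR 4-OHT alone it was 1.98 (SE 0.44, adjusted p = 0.0682). The pooled call stood on 3 to 79 fragments a library and ended under 15 of 22 alternatives, with adjusted p up to 0.137, among them the omission of any of the 12 TR libraries except TR vehicle 1. The interaction had an adjusted p of 1.00 for this gene, so a different response with and without 4-OHT was not shown.

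**Figure D5:**
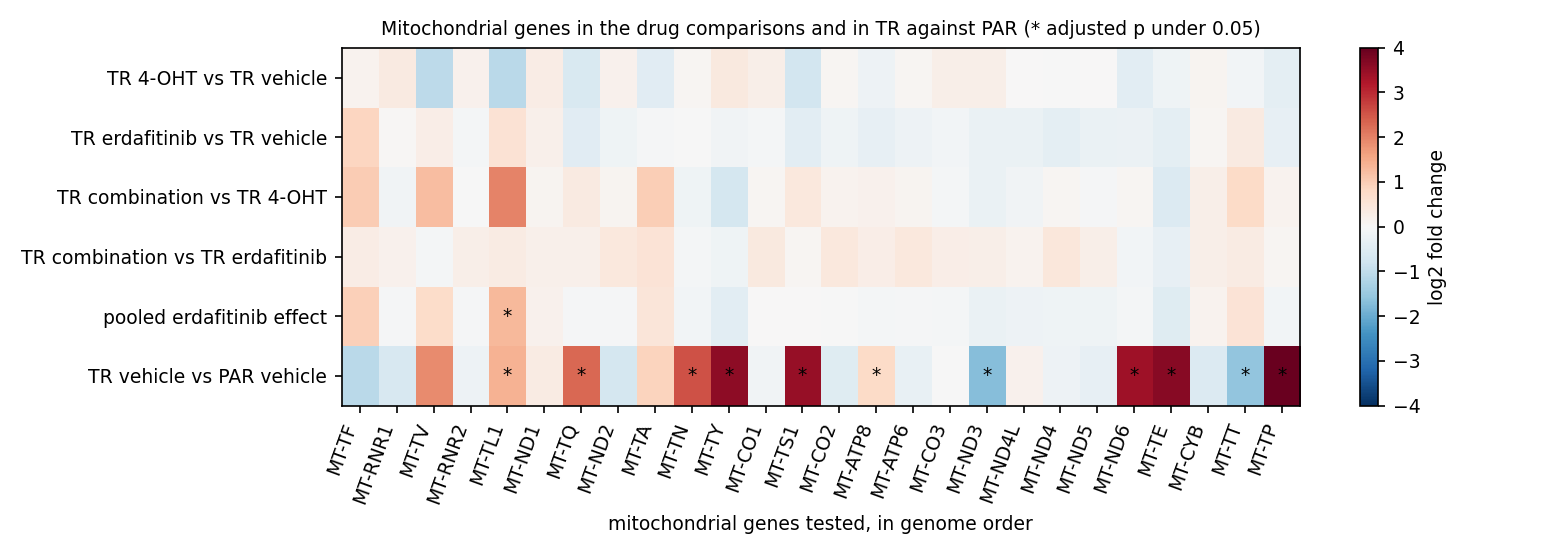
Log2 fold change (colour, lower in blue and higher in red) of the 26 mitochondrial genes tested, in genome order, in 5 comparisons of erdafitinib and 4-OHT in TR cells and in TR vehicle against PAR vehicle. Asterisks mark an adjusted p under 0.05; the drug comparisons hold 1, for MT-TL1, and the comparison of TR with PAR holds 11.

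Nuclear genes that act on mitochondrial RNA were read from the same fit, with TR vehicle against PAR vehicle. Of the 16 genes of mitochondrial transcription and DNA maintenance, 1 rose and 2 fell (median log2 fold change 0.06), which is 18.8% against the 35.9% of all genes called. TFAM, which packs mitochondrial DNA and starts transcription at its promoters, rose to 137 ± 34.3 CPM in TR, against 78.8 ± 6.30 CPM in PAR (SD, n = 3 each; log2 fold change 0.80, SE 0.18, adjusted p = 0.00291). MGME1, a nuclease of mitochondrial DNA (-0.55, adjusted p = 0.0153), and POLG2, a subunit of its polymerase (-0.49, adjusted p = 0.0433), fell. The polymerase that makes the transcripts, POLRMT, had 0.15 (adjusted p = 0.904). Without TR vehicle 3 the list held 1 call.

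Of 21 genes of mitochondrial RNA processing and stability, 1 rose and 5 fell, or 28.6% (median -0.23). ELAC2, the enzyme that cuts the 3′ ends of tRNAs out of both transcripts, rose (0.86, SE 0.18, adjusted p = 0.00180). REXO2, a nuclease that degrades very short mitochondrial RNAs, fell to 31.7 ± 5.19 CPM in TR, against 71.9 ± 9.52 CPM in PAR (SD, n = 3 each; log2 fold change -1.18, SE 0.19, adjusted p = 2.32e-04). SLIRP (-1.02, adjusted p = 0.0113) and LRPPRC (-0.62, adjusted p = 0.0227), which together bind and stabilise mitochondrial mRNAs, fell, as did PTCD2 (-0.56, adjusted p = 0.0227). SUPV3L1, the helicase of the complex that degrades mitochondrial RNA, fell (-0.65, SE 0.22, adjusted p = 0.0322), and its partner nuclease PNPT1 had -0.57 (adjusted p = 0.120). GRSF1, which assists that complex on G-rich RNA, had 0.04. Their part in the light-strand levels was not tested. The list held 3 calls without each of PAR vehicle 1, PAR vehicle 2, TR vehicle 2 and TR vehicle 3.

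Of 8 tested coactivators and factors of mitochondrial biogenesis, 4 fell and 0 rose, or 50% (median -0.72). PPARGC1A, a coactivator that drives mitochondrial biogenesis, fell to 2.38 ± 0.79 CPM in TR, against 22.3 ± 4.88 CPM in PAR (SD, n = 3 each; log2 fold change -3.23, SE 0.32, adjusted p = 2.56e-06), and its relative PPARGC1B fell to 3.85 ± 0.57 CPM, against 19.5 ± 4.53 CPM (-2.33, SE 0.26). MYC (-1.48) and GABPB1 (-0.60) were the others. PPARGC1B was also the only gene of the 9 lists called in a drug comparison, higher with erdafitinib over both backgrounds (log2 fold change 0.89, SE 0.18, adjusted p = 0.0177). This call was lost without each of TR vehicle 2, TR 4-OHT 1, TR 4-OHT 3, TR erdafitinib 2, TR erdafitinib 3 and TR combination 3.

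Lists of mitochondrial mass and of the nuclear partners of the mitochondrial products are read against the 35.9% of all genes called. Of 12 genes that mark mitochondrial mass, 2 rose and 2 fell, or 33.3% (median 0.00): the import subunit TIMM23 (1.10) and the outer membrane channel VDAC3 (0.61) rose, and the chaperone HSPA9 (-1.56) and the import receptor TOMM20 (-0.91) fell. Of 74 tested mitochondrial ribosomal proteins, 0 rose and 13 fell, or 17.6% (median -0.06), led by MRPS21 (-2.50, SE 0.22), MRPL15 (-1.13), MRPL48 (-0.95) and MRPS27 (-0.82). Without PAR vehicle 2 the list held 6 calls and without TR vehicle 3 it held 7. Of 71 nuclear subunits of complexes I, III, IV and V, 2 rose and 9 fell, or 15.5% (median -0.11), led by UQCRC2 (-0.90), NDUFA4 (-1.16), COX5A (-1.33) and NDUFS4 (-1.08). Without PAR vehicle 3 the list held 21 calls and without TR vehicle 3 it held 7. Of the 4 subunits of complex II, which is wholly nuclear, SDHD (-1.05) and SDHB fell, SDHB to 21.0 ± 4.80 CPM in TR, against 42.1 ± 8.96 CPM in PAR (SD, n = 3 each).

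Lists that bear on how mitochondrial fragments were captured were read beside these. Of 404 nuclear copies of mitochondrial sequence, 10 were tested and 0 were called in TR vehicle against PAR vehicle (median -0.69), with 2 called by DESeq2, 4 without PAR vehicle 3 and 1 each without PAR vehicle 1 and TR vehicle 3. Of 40 tested RNAs that lack a poly(A) tail or stay in the nucleus, 5 rose and 3 fell, or 20% (median -0.05). MALAT1, an abundant nuclear RNA, rose to 8912 ± 3671 CPM in TR, against 3562 ± 1242 CPM in PAR (SD, n = 3 each; log2 fold change 1.32, SE 0.31, adjusted p = 0.00399), and the histone genes H3C10 (2.52) and H2AC13 (2.43) rose, as did H4C8 (1.13). Whether the libraries were selected for poly(A) RNA is not given in the sources used here, and the part of capture or RNA quality in the light-strand difference was not tested.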

How the data were processed

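The deposited values are raw counts of fragments per Ensembl gene. Reads were aligned to GRCh38 with HISAT2 2.1.0, per the submitters' processing notes, and the authors counted paired, reverse-stranded fragments with featureCounts 2.0.1 on Ensembl 104, per the file headers (the processing notes give 1.4.6-p1). Per the file headers, the default settings leave out fragments that match several positions or touch several genes. Trimming and RNA selection: not given in the sources used here.

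The analysis used edgeR 4.0.16 under R 4.3.3: filterByExpr on the 5 groups (16210 of 60664 genes kept), TMM scaling, a mean per group over all 15 libraries without a block, and quasi-likelihood F tests for 7 comparisons. DESeq2 1.42.0 and other scalings, filters and library omissions were the alternatives. Standard errors are the absolute log2 fold change over the square root of F. The fit was tested on simulated data with large changes in well-counted genes and without a within-group axis. That test does not cover genes with few fragments. CPM values are TMM-scaled, and shares use unscaled totals. In a library, 3 counts equal 0.104 to 0.432 CPM; such floors cover counting error only. Libraries of a group differed by more than counting error (chi-square per gene 7.74 to 157), so none was a copy. Same-numbered libraries of different groups did not deviate together in all groups (correlations from -0.83 to 0.77, 13 of 30 over 0.1). TR vehicle and TR combination had 0.77, -0.01 and 0.75, and TR vehicle and TR erdafitinib had -0.83, -0.39 and -0.63. Numbers were not taken as pairs, but a batch shared by part of the groups was not tested.

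Members and lists were chosen with earlier results of these data known. Named were both rRNA genes, every member called in a comparison, the 3 most abundant tRNA genes, and of each nuclear list the 4 called genes with the smallest p in TR against PAR plus any called with a drug; 1 gene that this rule names is not reported here.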

Additional observations from a re-analysis of the deposited data

How the results depend on the processing

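Depth limits the tRNA genes most: the PAR libraries hold at most 40 fragments of MT-TP and 8 of MT-TE. Of the 37 members, 26 were tested, and their log2 fold changes in TR vehicle against PAR vehicle and those of MT-TL1 with erdafitinib kept direction and side of the threshold in 386 of 450 values under the alternatives. Of the others, 45 changed side and 19, none of them called, changed sign. The alternatives moved all summed levels by less than the replicate spread. Leaving out a single library can hardly move a group mean that far, so this decides little. The summed light-strand genes had a log2 ratio of 3.41 (TR vehicle over PAR vehicle). It was 2.98 to 3.75 without single libraries and 3.25 to 3.36 under the others. For the protein genes it was -0.16, with -0.38 to 0.04 and -0.24 to -0.10. The 7 light-strand calls stayed between 6 and 9. The cause of each change below was not tested, except that fitting only the groups compared leaves fewer libraries to estimate the spread.

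Of all genes, 5817 were called in TR vehicle against PAR vehicle, 3408 with only the groups compared and 8873 with the within-group axis as a covariate. DESeq2 called 87 with erdafitinib against vehicle (edgeR 15), 288 with the combination against 4-OHT (edgeR 104) and 580 with erdafitinib over both backgrounds (edgeR 278). Among the members and lists, calls in TR vehicle against PAR vehicle were as follows. With only the groups compared, 7 members were called (1 lower, 1 on the heavy strand), 1 gene of transcription and DNA maintenance, 3 of RNA processing, 5 ribosomal proteins and 5 subunits of complexes I, III, IV and V. With the within-group axis as a covariate 6 members were lower and 8 heavy-strand members were called, and the lists held 6 (transcription), 25 (ribosomal proteins), 34 (subunits), 4 (nuclear copies) and 16 (RNAs without a poly(A) tail). With no filter the lists held 1 (transcription), 7 (ribosomal proteins) and 7 (subunits). Without the 2 shallowest libraries 1 member was lower and 7 ribosomal proteins were called. DESeq2 called 2 nuclear copies, and totals without a TMM factor 1. Leaving out single libraries gave 1 to 6 members lower, 2 to 6 heavy-strand members, 1 to 3 genes of transcription, 3 to 8 of RNA processing, 6 to 15 ribosomal proteins, 7 to 21 subunits and 0 to 4 nuclear copies.

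In TR combination against TR 4-OHT, 1 member (MT-TL1) was called by DESeq2, without a TMM factor and with the axis as a covariate. Over both backgrounds, erdafitinib called 0 members with DESeq2 size factors, no filter or without the 2 shallowest libraries, and 0 to 1 without single libraries; the 9 lists together held 2 calls without a TMM factor, 9 with the axis and 0 to 2 without single libraries. Same-numbered libraries were not taken as pairs. With the replicate block 10 members were called in TR vehicle against PAR vehicle (1 lower) and 0 with erdafitinib over both backgrounds.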
